A study of Mus musculus with 6 samples.

Results

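The genes described here are 57 ligands and receptors of axon guidance, out of 52609 annotated mouse genes, in epiblast stem cells cultured with or without Activin A. They were chosen by name, with earlier results of these data known. They come from the Eph, ephrin, semaphorin, plexin, neuropilin, Slit, Robo and netrin families, and comprise 30 receptors and 27 ligands. Epiblast stem cells are primed pluripotent cells taken from the epiblast, the embryonic layer that gives rise to the body. RNA was sequenced in 6 libraries, 3 from cells with Activin A and 3 from cells without it. Per the labels, all 6 cultures grew on inactivated mouse embryonic fibroblasts, which serve as feeder cells, in a serum replacement medium. The medium of both groups held 3 additives: FGF2 (10 ng/mL), the Wnt secretion blocker IWP2 (5 µM), and SB431542 (2 µM), which inhibits the receptor kinases that Activin, Nodal and TGF-beta use. The groups differ in Activin A, given at 20 ng/mL to one of them. Activin A belongs to the TGF-beta family and signals through those kinases, so both groups carry an inhibitor of its pathway.

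The labels carry conflicts that bear on every comparison. The treatment text is worded alike for the 6 samples and names Activin A in each, and in replicate 1 of the group without Activin A the label for growth factors names it as well. Samples were grouped by their titles. The series design speaks of 2 lines with 3 replicates each, so a difference between lines cannot be told apart from the effect of Activin A. The labels do not state that replicates came from separate cultures, so p-values measure no more than the spread among these 6 samples, and that spread may be technical. RNA of feeder cells can be part of each library.

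Depth ranged from 9946521 to 16350923 reads per library, lowest in the library with Activin A replicate 3. That library also stood apart from the other libraries of its group, with a chi-square per degree of freedom of 6.09 and 7.20 against them, compared with 3.66 for the remaining pair and 1.82 to 2.08 for pairs without Activin A. It held the lowest normalised value of its group for 33 of the 54 members tested. Pluripotency markers were present in all libraries: Pou5f1 averaged 374 CPM (read counts scaled to library size, TMM-normalised) with and 121 CPM without Activin A. Of 7 tested target genes of Activin and Nodal, all 7 fell without Activin A, and Lefty1 went from 160 to 8.44 CPM. Across the transcriptome, 4505 of 15448 tested genes (29.2%) differed between the groups at an edgeR adjusted p under 0.05, 2155 higher (14.0%) and 2350 lower (15.2%) without Activin A.

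Guidance molecules steer growing axons and migrating cells by attraction and repulsion. Ephrins are ligands anchored in the membrane: ephrin-A ligands by a lipid, ephrin-B ligands by a transmembrane segment, and both bind Eph receptor tyrosine kinases on neighbouring cells. Semaphorins bind plexins, and secreted class 3 semaphorins usually also need a neuropilin as co-receptor. Slits repel through Robo receptors, while netrins act through Dcc and neogenin, or through Unc5 receptors in repulsion. Outside the nervous system these families also take part in tissue boundaries, blood vessel growth and cell movement in the early embryo.

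Without Activin A, 12 of the 54 members tested were higher, 18 were lower and 24 were not called. The share called, 55.6%, stands beside 29.2% of all tested genes. By direction it was 22.2% higher against 14.0% of all genes, and 33.3% lower against 15.2%. The members were chosen with earlier results of these data known, so these shares describe the list and are no test of the families. Tested genes of the same families lie outside the list, among them Epha10, Sema3b, Sema4f, Sema4g, Sema6c and Ntn3. The median log2 fold change was -0.11 for members and 0.0012 for all tested genes, and the median size of the change was 0.33 against 0.16. At least 2-fold differences were called in 11 members, where 4.85% of all tested genes reached that size. In 34 members (63.0%) the CPM ranges of the groups did not overlap, as in 42.9% of all tested genes. Receptors were called more often by count, 19 of 27 with 8 higher and 11 lower, than ligands, 11 of 27 with 4 higher and 7 lower, a difference that was not tested. Epha3, Epha5 and Unc5d, with at most 10, 12 and 10 reads in any library, did not pass the filter on low counts.

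**Figure D1:**
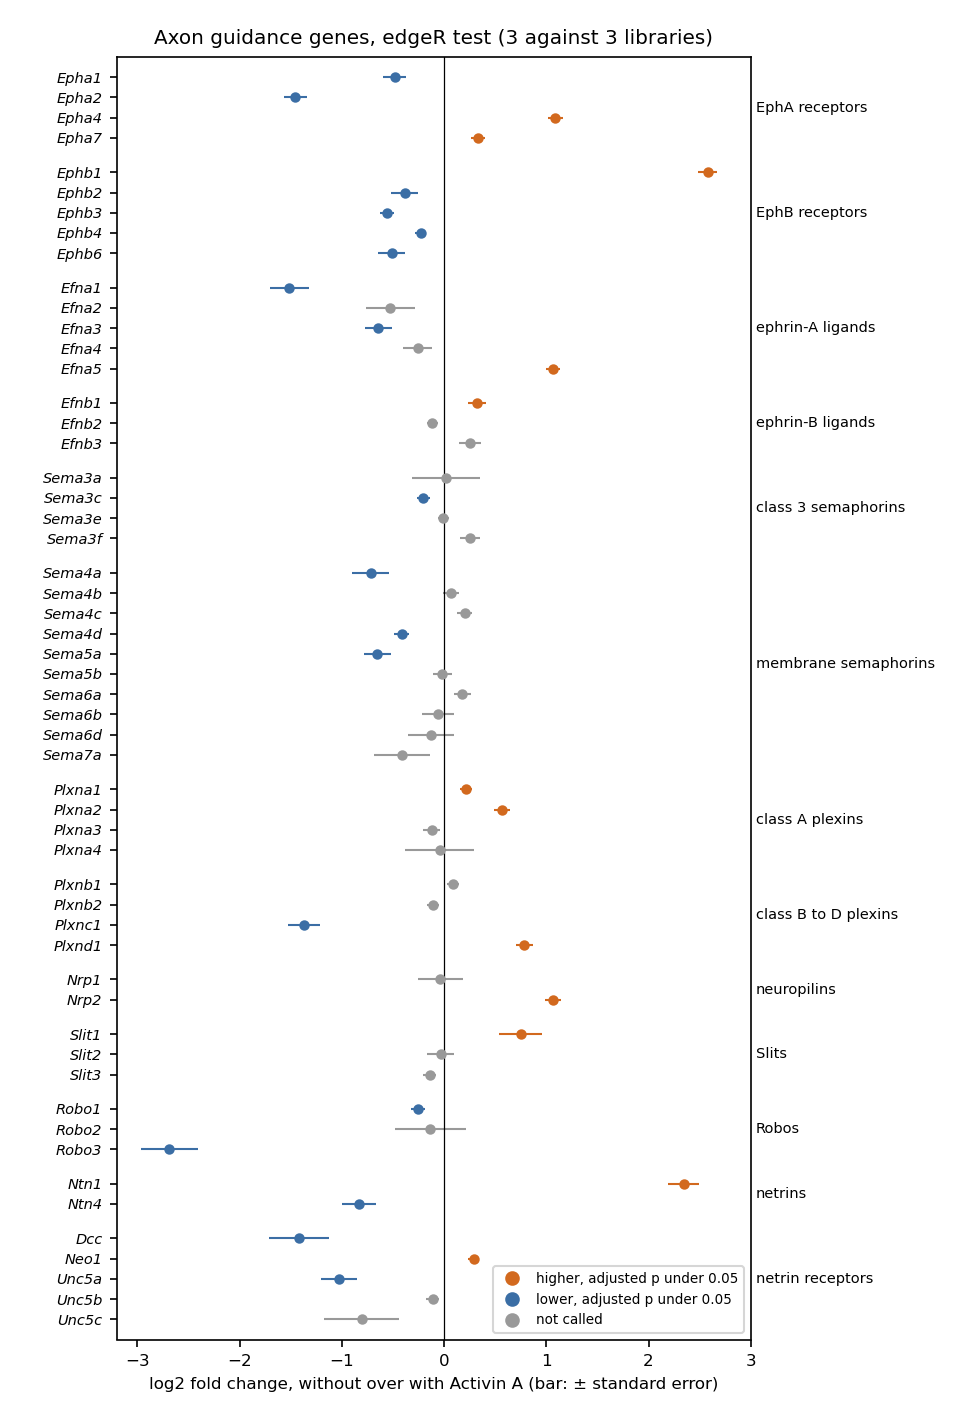
Log2 fold change (x axis, without over with Activin A) of the 54 tested guidance genes, grouped by family, with bars of ± 1 standard error from edgeR. Orange points are higher, blue points lower and grey points not called at adjusted p under 0.05. Ephb1 at 2.58 and Ntn1 at 2.34 lie farthest to the right and Robo3 at -2.69 farthest to the left, and the semaphorins lie between -0.72 and 0.25.

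Of the 30 calls, 10 held under every alternative way of processing tried: Ephb1, Ntn1, Epha4, Nrp2, Efna5 and Plxnd1 (higher) and Robo3, Efna1, Epha2 and Plxnc1 (lower). The other 20 were lost when limma was run on length-scaled TPM values in place of counts, 15 of them also with an offset for transcript length and 4 with DESeq2. The upstream sequence of 5 of the 10 is printed here to show what lies before genes of opposite direction, each as the 250 bases ahead of the RefSeq start on GRCm38.p6, read 5′ to 3′ on the gene's strand. Capitals mark CAGAC or its reverse complement GTCTG, the SMAD box, which is the short sequence bound by the SMAD proteins that carry Activin signals into the nucleus. The windows are, in order, chr1:77515089-77515338 (minus strand), chr17:62881318-62881567 (minus strand), chr9:102354694-102354943 (minus strand), chr4:141300971-141301220 (plus strand) and chr10:94944846-94945095 (minus strand). Epha4, Efna5 and Ephb1 were higher without Activin A, and Epha2 and Plxnc1 were lower.
Epha4: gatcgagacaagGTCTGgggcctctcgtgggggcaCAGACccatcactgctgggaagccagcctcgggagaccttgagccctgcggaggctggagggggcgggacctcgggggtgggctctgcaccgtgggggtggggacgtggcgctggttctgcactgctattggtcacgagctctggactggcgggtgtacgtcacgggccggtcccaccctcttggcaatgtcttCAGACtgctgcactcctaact
Efna5: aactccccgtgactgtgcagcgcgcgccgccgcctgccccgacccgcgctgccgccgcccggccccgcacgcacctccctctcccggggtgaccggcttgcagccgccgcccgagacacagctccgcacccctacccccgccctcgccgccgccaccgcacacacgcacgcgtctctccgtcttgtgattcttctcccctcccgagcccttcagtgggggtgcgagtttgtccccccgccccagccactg
Ephb1: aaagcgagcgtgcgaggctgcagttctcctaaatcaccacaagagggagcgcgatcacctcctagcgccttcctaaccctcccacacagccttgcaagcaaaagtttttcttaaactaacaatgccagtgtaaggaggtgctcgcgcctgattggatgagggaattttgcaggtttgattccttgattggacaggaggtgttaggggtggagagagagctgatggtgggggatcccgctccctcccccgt
Epha2: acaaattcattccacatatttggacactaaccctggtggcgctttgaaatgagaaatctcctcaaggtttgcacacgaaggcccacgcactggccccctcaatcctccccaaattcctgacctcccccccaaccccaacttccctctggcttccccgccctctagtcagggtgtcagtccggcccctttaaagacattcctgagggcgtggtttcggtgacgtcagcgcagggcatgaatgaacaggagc
Plxnc1: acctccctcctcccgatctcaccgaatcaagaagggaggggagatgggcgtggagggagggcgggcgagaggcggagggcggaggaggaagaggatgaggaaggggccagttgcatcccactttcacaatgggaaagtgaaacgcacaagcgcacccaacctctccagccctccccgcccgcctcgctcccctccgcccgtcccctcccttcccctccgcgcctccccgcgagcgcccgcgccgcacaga

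The Epha4 window held 3 SMAD boxes and the windows of Efna5, Ephb1, Epha2 and Plxnc1 held 0. RefSeq's promoter table matched 48 of the 57 members, without Dcc, Efnb3, Ntn1, Plxna1, Plxna4, Sema3f, Sema6a, Slit1 and Unc5d. Searched on both strands, CAGAC occurred in 20 of these 48 (41.7%), in 40.9% of 14270 promoters of tested genes and in 42.2% of all 32851 promoters. It was present in 3 of 9 members called higher, 7 of 17 called lower and 9 of 20 not called. The palindrome GTCTAGAC was found in 0 of 48 windows and AATCCACA, a motif of the SMAD partner FOXH1, in 1 of 48 (2.08%), against 0.406% of tested genes. GGCGCC, a GC-rich SMAD motif, occurred in 13 of 48 (27.1%) against 16.3% of tested genes. Member windows were also richer in GC, with a median of 65.8% against 59.6%, and the match between this motif and base composition was not tested. These matches are letters in a window and not binding sites.

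Eph receptors changed in both directions, and all 9 that were tested were called, beside 29.2% of all tested genes. These receptors were listed with earlier results of these data known, so the share is no test of the family. Ephb1, an EphB receptor at chr9:101922128-102354693, had 4.77, 4.83 and 4.59 CPM in the libraries with Activin A and 28.7, 29.5 and 26.8 CPM without. The values without Activin A were all far above those with it. Ephb1 rose 5.97-fold, from 4.73 ± 0.125 to 28.3 ± 1.37 CPM (SD, n = 3; log2 fold change 2.58, SE 0.10, edgeR adjusted p = 7.18e-11). Epha4, which binds ephrins of both classes and lies at chr1:77367185-77515088, had 26.7, 22.3 and 25.0 CPM with and 52.4, 54.1 and 51.3 CPM without Activin A. The groups were well apart, and Epha4 rose 2.13-fold (log2 fold change 1.09, SE 0.07, edgeR adjusted p = 3.36e-08). Epha4-205, a transcript annotated for nonsense-mediated decay, held 57.6% of the Epha4 TPM with and 41.4% without Activin A. Longer coding transcripts of Epha4 summed to 0.478 and 1.93 TPM. Epha7 rose less, from 25.1 to 31.7 CPM (log2 fold change 0.33, edgeR adjusted p = 0.0027).

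Epha2, a receptor for ephrin-A1 found on many epithelia (chr4:141301240-141329384), had 23.0, 21.7 and 18.2 CPM with Activin A and 8.01, 6.80 and 8.37 CPM without. It fell 2.74-fold with no overlap between the groups (log2 fold change -1.45, SE 0.11, edgeR adjusted p = 1.9e-07). Ephb3 had 43.0, 43.5 and 38.1 CPM with and 27.8, 29.0 and 28.3 CPM without Activin A, and was 1.47-fold lower (log2 fold change -0.56, SE 0.07, edgeR adjusted p = 2.54e-05). Ephb6, a receptor without kinase activity, had 10.6, 11.1 and 8.08 CPM with and 7.30, 7.55 and 6.28 CPM without, ranges that lay close together (log2 fold change -0.51, SE 0.13, edgeR adjusted p = 0.00934). Ephb4, the receptor of ephrin-B2 in blood vessels and the Eph receptor with the highest length-scaled level (15.8 TPM with and 13.2 TPM without), had 102, 96.3 and 92.5 CPM with Activin A and 83.4, 80.6 and 84.3 CPM without. Its decrease was small (log2 fold change -0.23, edgeR adjusted p = 0.00587). Epha1 fell by 0.48 on the log2 scale (edgeR adjusted p = 0.00446). Of the short sequence words of its transcripts, 5.24% also occur in other genes, most often in 2010010A06Rik. Ephb2 was lower by count (8.92 to 6.94 CPM, edgeR adjusted p = 0.0397). The Ephb2 call was lost when any 1 of 5 libraries was left out, with edgeR adjusted p from 0.0949 to 0.213, and held only when replicate 3 with Activin A was the one left out. Ephb6 lost its call when replicate 1 with Activin A was left out (edgeR adjusted p = 0.0559) and likewise when replicate 3 without Activin A was left out (edgeR adjusted p = 0.0563).

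Among ephrins, 2 rose, 2 fell and 4 were not called. Of all tested genes, 14.0% were called higher and 15.2% lower. Efna5, an ephrin-A that binds several EphA receptors (chr17:62604184-62881317), had 25.4, 24.4 and 28.5 CPM with Activin A and 51.9, 55.0 and 56.1 CPM without. The 3 libraries without Activin A were each higher than every library with it, a 2.09-fold rise (log2 fold change 1.07, SE 0.07, edgeR adjusted p = 3.2e-08). Efna1, a ligand of Epha2 (chr3:89271733-89281142), had 4.46, 4.32 and 4.19 CPM with and 1.20, 1.75 and 1.57 CPM without. It was 2.86-fold lower without Activin A (log2 fold change -1.51, SE 0.19, edgeR adjusted p = 3.08e-05), from 17 to 73 reads per library. Efna3, another ephrin-A, had 7.46, 8.42 and 6.78 CPM with and 4.61, 5.32 and 4.64 CPM without, and fell by 0.64 on the log2 scale (SE 0.13, edgeR adjusted p = 0.00232). Efna1, Efna3 and Efna4 are neighbours on chromosome 3, and Efna4 (chr3:89333390-89338028) was not called, with 7.15, 8.42 and 9.18 CPM against 6.59, 7.88 and 5.91 CPM, which overlap (edgeR adjusted p = 0.188).

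Efnb2, a ligand of Ephb4 and the ephrin with the highest level on the TPM scale (17.3 and 18.5 TPM), had 116, 106 and 121 CPM with and 108, 102 and 107 CPM without. The ranges overlapped and the difference was not called (log2 fold change -0.11, SE 0.06, edgeR adjusted p = 0.16). Efnb1 rose by count from 22.0 to 27.7 CPM (edgeR adjusted p = 0.0109), a call lost when replicate 2 without Activin A was left out (edgeR adjusted p = 0.0545). Efna2 (edgeR adjusted p = 0.117) and Efnb3 (edgeR adjusted p = 0.0942) were not called. Efna2 was called when replicate 1 without Activin A was left out (edgeR adjusted p = 0.0467), Efnb2 when replicate 2 with Activin A was left out (0.0433) and Efnb3 when replicate 3 with Activin A was left out (0.0474).

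**Figure D2:**
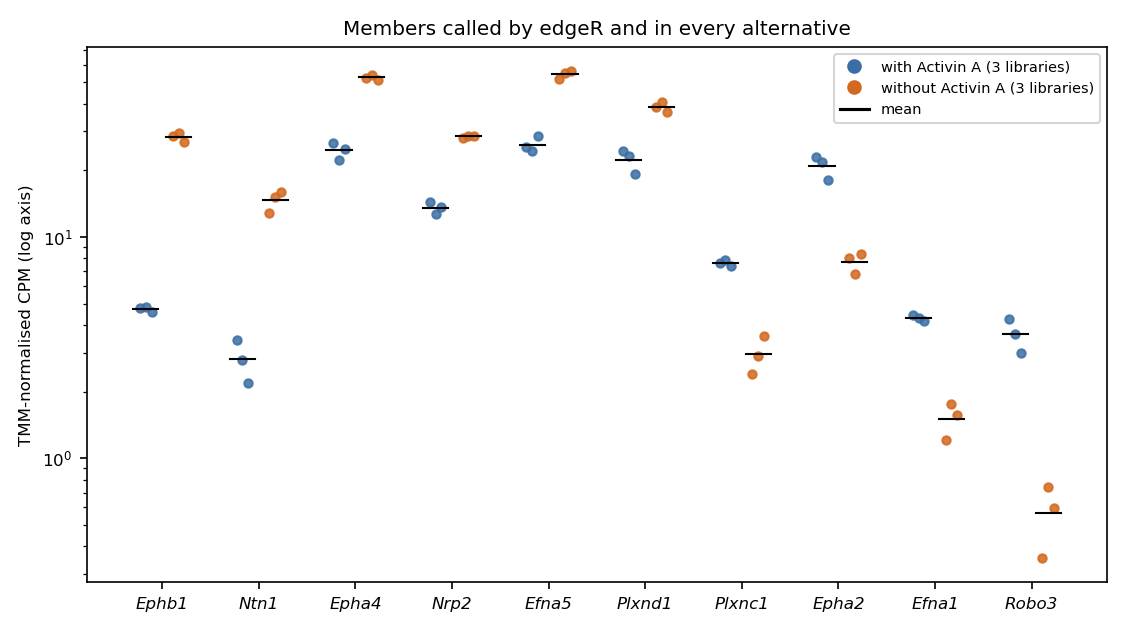
TMM-normalised CPM (y axis, log scale) of the 10 members called in edgeR and in every alternative, in each of the 3 libraries with (blue) and 3 without (orange) Activin A. Black lines are group means. In each of the 10 the groups do not overlap: Ephb1 goes from 4.73 to 28.3 CPM and Robo3 from 3.64 to 0.564 CPM.

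Of the 14 semaphorins among the members, 0 rose and 4 fell in edgeR (Sema3c, Sema4a, Sema4d and Sema5a). The share called of these 14, 28.6%, is near the 29.2% of all tested genes. The semaphorin counts and their share depend on which semaphorins were listed. Outside the members, the same fit called Sema3b higher (edgeR adjusted p = 0.0258), and Sema4g (0.0103) and Sema6c (7.83e-07) lower. Sema4f was not called (edgeR adjusted p = 0.0908). Among the 14, 2 were higher and 4 lower at an unadjusted p under 0.05, and 0 were called higher by DESeq2 and 0 by limma on TPM. Other alternatives did call one of the 14 higher. Sema4c was called with RLE scaling (edgeR adjusted p = 0.0494), with the GC and length trend removed (0.0164) and among protein-coding genes only (0.0454). Sema3f was called with no low-count filter (edgeR adjusted p = 0.00971), with the GC and length trend removed (0.000699) and with the replicate number as a block (0.0292). Log2 fold changes of the 10 not called (Sema3a, Sema3e, Sema3f, Sema4b, Sema4c, Sema5b, Sema6a, Sema6b, Sema6d and Sema7a) ran from -0.41 for Sema7a to 0.25 for Sema3f. Sema4a, a transmembrane semaphorin, had 3.91, 3.29 and 3.49 CPM with and 1.91, 2.29 and 2.32 CPM without Activin A. The groups did not overlap (log2 fold change -0.72, SE 0.18, edgeR adjusted p = 0.00832), but its call was lost when replicate 1 with Activin A was left out (edgeR adjusted p = 0.0518). Sema5a, a transmembrane semaphorin with thrombospondin repeats, had 6.72, 6.29 and 6.19 CPM with and 4.25, 4.18 and 3.81 CPM without, and fell by 0.65 on the log2 scale (SE 0.13, edgeR adjusted p = 0.00192). Sema4d, the ligand of plexin B1, fell from 36.2 to 27.2 CPM (edgeR adjusted p = 0.000434). Sema3c, a secreted semaphorin, fell from 70.6 to 61.4 CPM (edgeR adjusted p = 0.0237). Its call was lost when replicate 1 with Activin A was left out (edgeR adjusted p = 0.0995) and when any of the 3 libraries without Activin A was left out (edgeR adjusted p from 0.0533 to 0.127).

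Sema3f and Sema3e, with the highest mean TPM among semaphorins, were not called. Sema3f, a ligand of Nrp2 at 15.2 TPM with and 18.9 TPM without, had 27.8, 28.7 and 20.8 CPM with and 32.5, 30.8 and 29.8 CPM without Activin A, with no overlap (log2 fold change 0.25, SE 0.10, edgeR adjusted p = 0.0679). Sema3f was called when replicate 2 with Activin A was left out (edgeR adjusted p = 0.0434), and Sema6a when replicate 1 with Activin A was left out (edgeR adjusted p = 0.0474). Sema3e, a ligand of Plxnd1, averaged 151 CPM in both groups (log2 fold change -0.01, SE 0.05). The retained-intron transcript Sema3e-202 held 61.0% of the Sema3e TPM with and 61.4% without Activin A. Longer coding transcripts of Sema3e summed to 6.49 and 6.48 TPM. In Sema3f, transcripts under 1000 bases held 63.3% of the TPM with and 63.2% without Activin A, and its longer coding transcripts summed to 4.38 and 5.07 TPM, against 7.90 and 6.94 TPM for Sema3c. Sema5b and Sema6a had nearly the same mean TPM over the 6 libraries, 5.890 and 5.889, the highest of the membrane semaphorins among the members. Transcripts under 1000 bases held 63.4% and 61.3% of the Sema5b TPM, and its longer coding transcripts summed to 1.76 and 1.81 TPM, against 4.92 and 5.64 TPM for Sema6a. Sema5b had 14.7, 14.0 and 12.5 CPM with and 13.6, 13.4 and 13.9 CPM without Activin A, overlapping ranges (log2 fold change -0.02, SE 0.09).

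Plexins and neuropilins gave 4 rises and 1 fall among 10. This share called, 50%, stands beside 29.2% of all tested genes. Nrp2, the neuropilin that serves as co-receptor for Sema3f (chr1:62703285-62818695), had 14.4, 12.7 and 13.7 CPM with and 28.1, 28.7 and 28.6 CPM without Activin A. It rose 2.10-fold, and the spread within each group was small beside that (log2 fold change 1.07, SE 0.08, edgeR adjusted p = 1.06e-07). Nrp1, the other neuropilin, was not called at 2.63 ± 0.0662 and 2.57 ± 0.722 CPM (SD, n = 3). Plxnd1, the receptor of Sema3e (chr6:115954811-115995005), had 24.4, 23.3 and 19.3 CPM with and 38.8, 40.8 and 36.9 CPM without, a 1.72-fold rise (log2 fold change 0.78, SE 0.08, edgeR adjusted p = 5.56e-06). Plxna2 had 28.4, 25.6 and 22.8 CPM with and 38.5, 36.9 and 39.2 CPM without, and was 1.48-fold higher (log2 fold change 0.56, SE 0.08, edgeR adjusted p = 7.43e-05). For Nrp2, Plxnd1 and Plxna2, all 3 libraries without Activin A were above the 3 with it, while those of Nrp1 overlapped.

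Plxnc1, the receptor of Sema7a (chr10:94790866-94944835), fell: it had 7.64, 7.90 and 7.38 CPM with and 2.41, 2.90 and 3.59 CPM without. It was 2.58-fold lower (log2 fold change -1.37, SE 0.15, edgeR adjusted p = 9.35e-06). Plxna1, a receptor for class 3 semaphorins together with neuropilins, had 138, 130 and 116 CPM with and 146, 151 and 151 CPM without. Its rise was small (log2 fold change 0.22, SE 0.06, edgeR adjusted p = 0.0142), and was lost when replicate 2 or 3 without Activin A was left out (edgeR adjusted p = 0.0646 and 0.0661). Plxnb2, a receptor of class 4 semaphorins, had the highest mean TPM of the 57, at 68.3 ± 0.822 with and 53.4 ± 4.79 TPM without (SD, n = 3). Its counts, 325, 301 and 274 CPM against 280, 280 and 277 CPM, overlapped and were not called (edgeR adjusted p = 0.189). Plxnb2 was called lower when replicate 3 with Activin A was left out (log2 fold change -0.17, edgeR adjusted p = 0.000584). It was also called lower with limma on TPM (log2 fold change -0.35, adjusted p = 0.0419), with the transcript length offset (-0.38, edgeR adjusted p = 0.0174) and with an offset for GC and length (-0.16, edgeR adjusted p = 0.000141). Transcripts under 1000 bases held 61.3% of the Plxnb2 TPM with and 51.0% without Activin A, and 83.6% and 82.2% of that of Plxnd1. One of them, Plxnd1-204 of 442 bases, held 38.5% and 49.4% of the Plxnd1 TPM on 9 to 41 reads. Plxna3 (edgeR adjusted p = 0.307), Plxna4 (0.952) and Plxnb1 (0.329) were not called.

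The largest fall in the list was that of Robo3, an atypical receptor that regulates midline crossing of commissural axons (chr9:37415669-37433246). It had 4.28, 3.66 and 2.99 CPM with and 0.354, 0.741 and 0.598 CPM without Activin A. The groups did not overlap and Robo3 was 6.44-fold lower (log2 fold change -2.69, SE 0.28, edgeR adjusted p = 4.02e-06), from 5 to 70 reads per library. Robo1, a Slit receptor and the Robo with the highest TPM, had 32.6, 34.0 and 35.9 CPM with and 28.1, 29.5 and 28.1 CPM without (log2 fold change -0.25, SE 0.07, edgeR adjusted p = 0.0115). Robo1 lost its call when replicate 1 (edgeR adjusted p = 0.0579) or 3 (edgeR adjusted p = 0.0554) without Activin A was left out. Slit1, a secreted ligand of Robo receptors, had 1.77, 1.98 and 2.00 CPM with and 3.40, 3.71 and 2.47 CPM without, with replicate 3 without Activin A the lowest of its group but still above the libraries with Activin A (log2 fold change 0.75, SE 0.21, edgeR adjusted p = 0.0148). The Slit1 call was lost when replicate 1 with Activin A was left out (edgeR adjusted p = 0.0693) and when replicate 1 (0.0582) or 2 (0.0818) without Activin A was left out. Slit3, the Slit with the highest TPM, had 114, 107 and 95.0 CPM with and 96.9, 92.8 and 97.7 CPM without, overlapping (log2 fold change -0.14, edgeR adjusted p = 0.12). It was called lower when replicate 3 with Activin A was left out (log2 fold change -0.21, edgeR adjusted p = 0.000531), as was Unc5b, a receptor of netrin repulsion (log2 fold change -0.17, edgeR adjusted p = 0.00512). Slit2 and Robo2 were not called, at log2 fold changes of -0.03 (SE 0.13) and -0.13 (SE 0.35).

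Netrins moved in opposite directions. Ntn1, the secreted netrin-1 (chr11:68209364-68400823), had 3.42, 2.78 and 2.19 CPM with and 12.9, 15.1 and 16.0 CPM without Activin A. The lowest library without Activin A was well above the highest with it, and Ntn1 rose 5.08-fold (2.80 ± 0.614 to 14.7 ± 1.60 CPM, SD, n = 3; log2 fold change 2.34, SE 0.15, edgeR adjusted p = 2.21e-08). Ntn4, a laminin-related netrin of basement membranes, had 6.54, 5.78 and 4.59 CPM with and 3.19, 3.57 and 2.84 CPM without. It was 1.78-fold lower (log2 fold change -0.83, SE 0.17, edgeR adjusted p = 0.00174).

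Of the 5 netrin receptors tested, 1 rose and 2 fell, a share called of 60% beside 29.2% of all tested genes. Dcc, the receptor of netrin attraction, had 1.83, 1.46 and 1.90 CPM with and 0.779, 0.539 and 0.598 CPM without, and was 2.68-fold lower at 8 to 30 reads per library (log2 fold change -1.42, SE 0.29, edgeR adjusted p = 0.00202). Unc5a, a receptor of netrin repulsion, had 6.97, 8.34 and 5.29 CPM with and 3.83, 3.10 and 3.29 CPM without, and was 2.04-fold lower (log2 fold change -1.03, SE 0.17, edgeR adjusted p = 0.000425). In both genes the libraries with Activin A were all higher. Neo1, neogenin, which also binds repulsive guidance molecules, had 89.1, 81.3 and 87.9 CPM with and 106, 102 and 107 CPM without. It rose by 0.29 on the log2 scale (SE 0.06, edgeR adjusted p = 0.00111). Neo1 has the highest level of the netrin receptors (10.1 and 12.6 TPM), and Dcc one of the lowest (0.219 and 0.0826 TPM). Unc5b (edgeR adjusted p = 0.226) and Unc5c (log2 fold change -0.81, SE 0.37, edgeR adjusted p = 0.116) were not called.

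**Figure D3:**
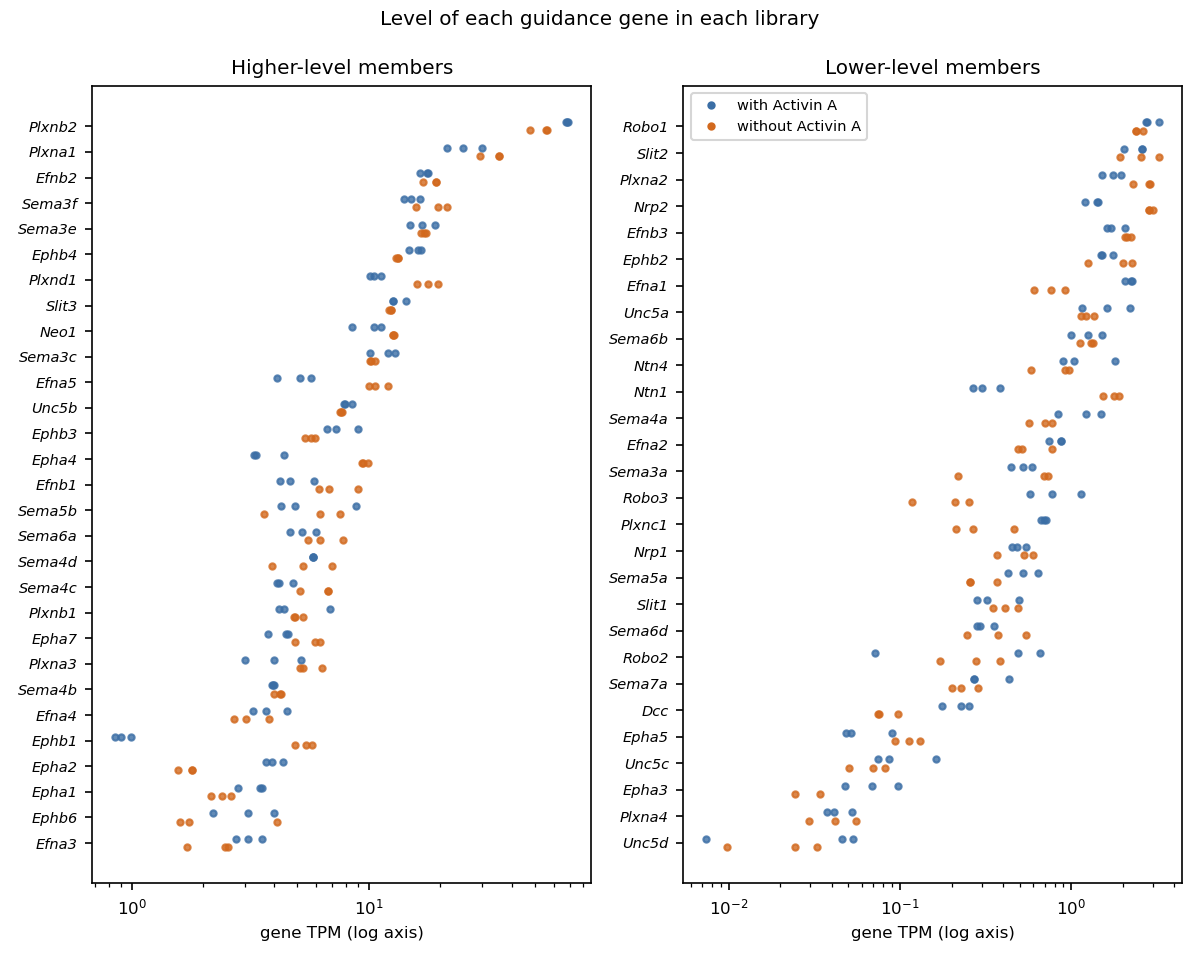
Gene TPM (x axis, log scale) of each of the 57 members in the 3 libraries with (blue) and 3 libraries without (orange) Activin A, ordered by mean level, higher members left and lower members right. Libraries at 0 are not drawn, which applies to Epha3 in 1 library without Activin A. Plxnb2 leads at 68.3 TPM with and 53.4 TPM without, and Unc5d is lowest.

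On the TPM scale, which allows comparison between genes, mean levels over the 6 libraries ranged from 60.8 (Plxnb2) and 29.4 (Plxna1) down to 0.0290 (Unc5d). In Plxna1, transcripts under 1000 bases held 65.3% of the TPM with and 69.4% without Activin A, and its longer coding transcripts summed to 8.68 and 10.2 TPM. Summed over the members of each family, class B to D plexins were the most abundant, at 83.9 to 85.7 TPM with and 69.3 to 81.1 TPM without Activin A. Class 3 semaphorins followed, at 40.6 to 46.5 and 43.2 to 49.5 TPM. These sums include short and retained-intron transcripts, and the order can differ in longer coding ones. Transcripts under 1000 bases held 61.3% and 51.0% of the Plxnb2 TPM and 63.3% and 63.2% of that of Sema3f. The retained-intron transcript Sema3e-202 held 61.0% and 61.4% of that of Sema3e. Neuropilins went from between 1.66 and 1.99 to between 3.37 and 3.43 summed TPM, without overlap. Robos went from between 3.96 and 4.33 to between 2.67 and 3.21 TPM, also without overlap. Likewise separate and higher without Activin A were EphA receptors (14.6 to 16.3 against 18.4 to 20.4 TPM) and ephrin-B ligands (22.6 to 25.4 against 26.0 to 30.3). The same held for class A plexins (26.9 to 37.1 against 37.5 to 44.1) and netrin receptors (18.9 to 20.9 against 21.6 to 21.8). Class B to D plexins, given above, did not overlap either. Ephrin-A ligands, class 3 and membrane semaphorins, Slits and netrins overlapped. EphB receptors overlapped, at 27.8 to 29.7 TPM with and 27.7 to 29.6 TPM without. In that family the rise of Ephb1 from 0.917 to 5.34 TPM stood beside falls of Ephb3 from 7.64 to 5.69 TPM and Ephb4 from 15.8 to 13.2 TPM.

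Transcript estimates add a description, with no test, since the error of each estimate is not known. The genes named are examples. How often shares separate between the groups among all transcripts was not determined, so their differences are no result on transcript use. Neo1-202 took 38.4% ± 2.31 of the Neo1 TPM with and 49.7% ± 3.36 without Activin A (SD, n = 3). Neo1-201 went from 44.6% ± 3.58 to 35.3% ± 2.14, and both rest on at least 340 reads per library. Ephb2-203, a coding transcript of 3653 bases, held 41.1% ± 7.62 with and 5.72% ± 6.63 without, and the retained-intron transcript Ephb2-205 of 599 bases went from 19.2% ± 16.7 to 48.5% ± 14.5. These Ephb2 shares rest on few reads, 0 to 4 with and 3 to 11 without Activin A for Ephb2-205, and 30 to 67 and 0 to 23 for Ephb2-203. In Unc5a the coding transcript Unc5a-202 fell from 62.4% ± 8.44 to 35.7% ± 8.09 and Unc5a-203, of 501 bases, went from 6.77% ± 11.7 to 43.5% ± 8.81 on at most 4 reads. Most of the Sema4a TPM lay in the retained-intron transcript Sema4a-211, at 63.2% ± 16.1 with and 92.7% ± 7.68 without. For Robo3, protein-coding transcripts held 29.0% of the TPM with and 6.19% without. The Ephb2 total went from 1.59 to 1.83 on the TPM scale, while its counts went down.

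**Figure D4:**
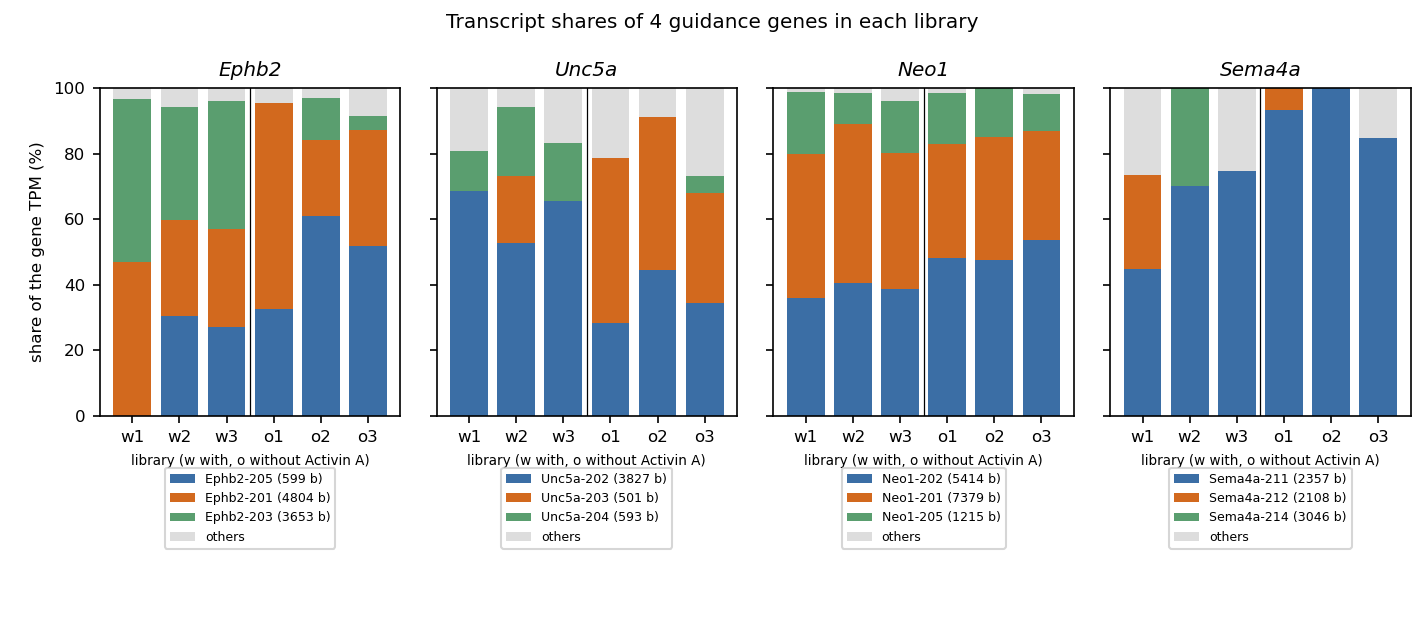
Share of the gene TPM (y axis, percent) held by the 3 transcripts with the highest mean TPM of Ephb2, Unc5a, Neo1 and Sema4a and by all others (grey), in each library with (w1 to w3) and without (o1 to o3) Activin A. Ephb2-203 holds 41.1% on average with and 5.72% without Activin A, and Neo1-202 goes from 38.4% to 49.7%.

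Guidance genes outside the 57 were read off the same fit from lists chosen by function. Of 20 other ligands and receptors tested out of 31, 4 rose and 10 fell without Activin A, and of 52 effectors tested out of 53, 16 rose and 8 fell. The shares called were 70% and 46.2%, beside 29.2% of all tested genes (14.0% higher and 15.2% lower). Both lists were chosen with earlier results of these data known. Cntn2, a neuronal adhesion molecule, fell 3.82-fold to 9.59 ± 0.488 CPM (edgeR adjusted p = 1.04e-09), and Draxin, a netrin antagonist, 3.58-fold to 1.73 ± 0.157 CPM (SD, n = 3; edgeR adjusted p = 9.03e-06). Cxcl12, the ligand of Cxcr4, was 1.76-fold lower and Sema6c 1.99-fold lower (edgeR adjusted p = 6.33e-07 and 7.83e-07). Flrt3, a ligand of Unc5 receptors, rose 2.28-fold (edgeR adjusted p = 9.35e-06), Rgma, a ligand of neogenin, 1.67-fold (edgeR adjusted p = 0.00234), Sema3b 1.20-fold (edgeR adjusted p = 0.0258) and Cxcr4 1.47-fold (edgeR adjusted p = 0.0279). Among effectors, Rnd1, a GTPase that binds plexins, rose 4.17-fold (edgeR adjusted p = 2.32e-06) and Farp1, a guanine nucleotide exchange factor, 1.69-fold (edgeR adjusted p = 4.12e-07). Srgap2 and Srgap3, GTPase activating proteins that act with Robo receptors, rose 1.25-fold and 1.41-fold (edgeR adjusted p = 0.000242 and 0.000574). Dpysl3, a collapsin response mediator, was 1.44-fold lower (edgeR adjusted p = 5.92e-05), and Pak3, Trio and Ablim3 were 1.57-, 1.25- and 3.16-fold lower (edgeR adjusted p = 0.000666, 0.000789 and 0.000868). Leaving out replicate 1 or replicate 2 without Activin A lowered the count of higher genes over both lists from 20 to 13 in each case. In the same 2 settings, the count of higher genes among all tested genes went from 2155 to 1518 and 1483.

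Marker genes of several cell types moved as well, and whether each type was present in the cultures was not tested. In bulk libraries, fewer cells of a type and less RNA per cell cannot be told apart. All 12 epiblast markers were called, 2 higher and 10 lower, with a summed level of 2099 to 2132 CPM with and 1400 to 1428 CPM without Activin A. Feeder fibroblast markers gave 3 higher (Col1a1, Col1a2 and Col5a2, log2 fold changes 0.54 to 0.78) and 6 lower of 17 tested, with the falls of Col3a1 (-1.21), Thy1 (-1.17) and Lox (-1.07) the largest changes. The list's median log2 fold change was -0.18, while its summed level, most of it in the 3 collagens that rose, was 760 to 810 CPM with and 1006 to 1024 CPM without Activin A. Postmitotic neuron markers gave 1 higher and 6 lower of 12, at 675 to 689 and 393 to 400 CPM. Stmn2, at 426 and 235 CPM, was the highest of them by CPM, and Rbfox3 was at 0.540 and 0.754 CPM. Neural progenitor markers gave 1 higher and 2 lower of 6 tested, at 240 to 249 and 182 to 189 CPM, with 4 of the list at 22 reads or fewer. Endothelial markers gave 4 higher of 6 tested, at 11.9 to 14.4 and 24.0 to 27.7 CPM, with Emcn at 0 in all libraries with Activin A. The shares called were 100% (epiblast), 52.9% (feeder fibroblast), 58.3% (neuron), 50% (neural progenitor) and 66.7% (endothelium), beside 29.2% of all tested genes. The part of any of these cell types in the guidance gene values was not tested. Exons on the opposite strand overlap those of 11 members, among them Ephb1, Ephb4, Epha1, Efna3, Plxna1 and Unc5a, and whether the authors counted by strand is not given in the sources used here.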

How the data were processed

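RNA was sequenced in 6 libraries, 3 with and 3 without Activin A, prepared with a stranded poly(A) kit per the labels' protocols. The deposited files hold, for each of 133618 transcripts, an estimated read count and its TPM, in the columns that Salmon writes, per the file headers. Salmon, DESeq2 and edgeR are named without versions in the submitters' processing notes, with the authors' build and annotation not given in the sources used here. The deposited estimated counts are not normalised, while the deposited TPM divides by transcript length and by the library's total.

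Transcripts were matched to GENCODE M21 (GRCm38) with the version ignored: 133399 matched, and the 219 others, with 0.131% to 0.149% of reads, were left out. Counts were summed per gene, rounded and tested in edgeR 4.0.16 (R 4.3.3) over all genes passing filterByExpr (minimum count 10, minimum total 15), with TMM scaling, a robust quasi-likelihood F test and Benjamini-Hochberg adjustment at 0.05. Folds are without over with Activin A, and a standard error is the log2 fold change divided by the square root of F. DESeq2 1.42.0, limma 3.58.1 on log2(TPM + 1) and mgcv 1.9.3 served alternatives, which also included other scalings and filters, offsets for length and GC, a replicate block, and leaving out each library or both doubted ones (with Activin A replicate 3 and without Activin A replicate 1), the last added after seeing the data. Levels between members are compared in TPM only. Sums and ranks of marker genes are in CPM, which also depends on transcript length. The test was checked on simulated data.

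The members, gene lists and markers were chosen with earlier results of these data known. Values per library are given for members called with an absolute log2 fold change of at least 0.5 and for the member with the highest mean TPM of each family. Of the other guidance genes, up to 4 called genes per list and direction with the smallest p are named. Members outside that rule are named to account for each of them.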

Additional observations from a re-analysis of the deposited data

How the results depend on the processing

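Of the 30 called members, 10 kept call and direction in all 17 alternatives, 20 lost the call in at least 1, and 10 uncalled members gained one. limma on log2(TPM + 1) called 778 genes higher and 781 lower among all genes, 6 and 5 members, and 4 and 5 other guidance genes. The transcript length offset gave 1056 and 1028 genes, 8 lower members and 6 and 6 other guidance genes. DESeq2 called 11 other guidance genes lower. The cause of these losses was not tested. Ephb2 turned to 0.11 on the log2 scale with limma (adjusted p = 0.681) and 0.16 with the length offset (edgeR adjusted p = 0.688). Leaving out single libraries gave 1483 to 2808 genes higher and 1763 to 2881 lower, 9 to 13 members higher and 14 to 21 lower, and 13 to 25 and 12 to 22 other guidance genes. Without both doubted libraries, 12 members were higher and 21 lower, Sema3c lost its call (edgeR adjusted p = 0.0539), and Efna2, Plxnb2, Slit3 and Unc5b were called lower. Upper-quartile scaling changed no member call, but gave 1737 genes higher and 2702 lower, and 16 and 21 other guidance genes. The GC and length offset added 7 member calls and lost 0, while it also raised the calls among all genes to 3010 and 2924.

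Deviations of same-numbered libraries from their group means had correlations of -0.011, -0.030 and -0.049. Those of different-numbered libraries ran from -0.027 to 0.056. This check cannot exclude that same-numbered samples were handled together, since such deviations also hold counting noise. The main test did not pair the samples. With the replicate number as a block, 2125 genes were higher and 2297 lower, with 13 and 18 members. Dcc and Robo3 rest on at most 30 and 70 reads per library, which limits the precision of their folds, and Epha3, Epha5 and Unc5d were too low to test.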
